A study of Mus musculus with 4 samples.

Results

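Eomes NK cells of the mouse liver are described here, that is, natural killer cells with RNA of the transcription factor *Eomes*, in single-cell transcriptomes of CD45+ liver cells sorted for or against the tdTomato lineage label. The rule used RNA counts alone. Among barcodes that had 300 or more detected genes and no more than 10% mitochondrial counts, a cell was selected on no count of *Cd3e*, *Cd3d* or *Cd3g*, at least 2 counts of *Ncr1* and *Klrb1c* together, at least 1 count of *Eomes*, and no count of *Cd79a*, *C1qa*, *Kdr* or *Clec4g*. This chose 65 of 17509 tdTomato+ cells (0.371%, 95% interval 0.287 to 0.473) and 67 of 18173 tdTomato− cells (0.369%, 0.286 to 0.468), 132 of 35682 cells in all.

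The study traced liver γδ T cells from the yolk sac endothelium. Both libraries came from adult livers, at an age of 2 months. The mice carried the alleles *Stab2-CrexERT2* and *R26-LSL-tdT*, and tamoxifen was given at E9.5, so that cells with *Stab2* promoter activity at that stage and their progeny carried tdTomato. The labels write the genotype as S2 and give no treatment, so the alleles, the age and the induction follow the study's methods. All groups shared them, and the adult liver also expresses *Stab2* in its sinusoidal endothelium. One 5′ library was made per sort (tdTomato+ from batch 1, tdTomato− from batch 2), each from pooled mice that cannot be traced back in the files. The gate was drawn for γδ T cells and let other cells through. In the study's annotation these include endothelial cells, hepatocytes and other cells that are not leukocytes. A T cell receptor contig was found for 132 of 17509 tdTomato+ and 2519 of 18173 tdTomato− cells. The share of NK cells in a library was therefore set by the gate and the pooling as well as by the liver. With 1 library per sort no comparison could be tested, and sort, batch and mice cannot be told apart. The 95% intervals (exact binomial for shares, exact Poisson for levels, exact conditional binomial for ratios) cover counting error only. Pairs of values are given for the tdTomato+ library and then the tdTomato− library.

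Natural killer cells are innate lymphocytes that kill target cells through perforin and granzymes and secrete interferon-γ and chemokines. They carry no rearranged antigen receptor, and their activity is set by activating and inhibitory surface receptors, in mice including the Ly49 family. The liver holds circulating NK cells, which depend on Eomes and carry CD49b (*Itga2*), and resident type 1 innate lymphoid cells (ILC1), which have T-bet (*Tbx21*) without Eomes and carry CD49a (*Itga1*), CXCR6 and TRAIL (*Tnfsf10*). Both carry NKp46 (*Ncr1*) and NK1.1 (*Klrb1c*).

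Member cells had a median of 8550 and 7354 unique molecular identifiers (UMIs), with ranges of 1389 to 51488 and 3931 to 22299, and a median of 2918 and 2747 detected genes. Summed over members this gave 678748 and 528111 UMIs, and levels are given as counts per 1000000 UMIs of such sums (CPM). None of the members shared a barcode with the other library, although 84 barcodes occurred in both, and none had a T cell receptor contig.

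Of the barcodes that passed the gene and mitochondrial filters, 860 and 2871 had at least 2 counts of *Ncr1* and *Klrb1c*. Of these, 477 tdTomato+ and 137 tdTomato− barcodes had no *Cd3* count. The exclusion of *Kdr* and *Clec4g*, genes of endothelial cells, applied to 145 of these tdTomato+ barcodes and 0 tdTomato− barcodes. Without this part of the rule the tdTomato+ members numbered 100 (0.571%), and the tdTomato− members were still 67. The macrophage gene *C1qa* applied to 32 and 4 barcodes and the B cell gene *Cd79a* to 1 and 1, and some barcodes met more than 1 exclusion. All of them together left 308 tdTomato+ and 132 tdTomato− *Ncr1* cells. The members are those with *Eomes*, and the other 243 and 65 cells, termed Eomes-zero cells here, had no *Eomes* count and serve as the comparison.

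The genes of the rule describe the members and are no finding. *Eomes* (chr9:118478212-118486132, plus strand, GRCm38) had 1 count in 13 and 14 members, 2 counts in 16 and 16, and 3 or more in 36 and 37, with a highest count of 17 and 15. Its summed level was 351 and 483 CPM. *Ncr1* (chr7:4337724-4345164, plus strand) was at 1176 and 1469 CPM, and *Klrb1c* (chr6:128778485-128789215, minus strand) at 64.8 and 81.4 CPM. The joint count of *Ncr1* and *Klrb1c* had a median of 12 and 11, and the members nearest the limit were 1 and 1 with exactly 2 counts. Just outside the rule were 3 and 0 cells with 1 such count, and 5 and 12 with 1 *Cd3* count.

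*Eomes* was detected in 65 of 308 tdTomato+ *Ncr1* cells (21.1%, 16.7 to 26.1) and in 67 of 132 tdTomato− *Ncr1* cells (50.8%, 41.9 to 59.6). The intervals do not overlap. After each cell was thinned to 2000 UMIs, the shares were 30 of 304 (9.87%, 6.76 to 13.8) and 40 of 121 (33.1%, 24.8 to 42.2), with 4 and 11 shallower cells left out. In B cells, which should lack *Eomes*, it was found in 0 of 240 tdTomato+ cells (0%, 0 to 1.53) and in 2 of 343 tdTomato− cells (0.583%, 0.071 to 2.09). These B cells had a median of 6433 and 5829 UMIs, against 8866.5 and 6792.5 in the *Ncr1* cells. With cells that had any receptor constant gene count left out, a stricter exclusion of T cells, the shares were 51.7% and 59.1%. They rest on only 15 and 13 members, and the libraries were then closer to each other than at 21.1% and 50.8%. Members made up nearly equal shares of the libraries, whereas Eomes-zero cells made up 1.39% of the tdTomato+ and 0.358% of the tdTomato− cells. As the gate set which cells entered each library, what this ratio was in the liver was not tested.

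The label was checked against the remaining markers of the cells and against T cell genes. *Prf1* had a count in 98.5% and 98.5% of members and *Gzma* in 95.4% and 98.5%, against 2.92% and 2.04% (*Prf1*) and 3.75% and 9.91% (*Gzma*) of B cells. Eomes-zero cells had *Prf1* in 76.5% and 52.3% and *Gzma* in 27.2% and 41.5%. The *Ncr1* γδ T cells described at the end had *Prf1* in 69.7% and 73.9% and *Gzma* in 63.6% and 81.6%. A count of either gene therefore does not by itself set members apart from these cells. *Trgc1*, a γ chain constant gene, had 0 counts in both groups of members. *Trgc4*, another γ chain constant gene, was detected in tdTomato+ members. In both libraries it was at least 2-fold lower in members than in Eomes-zero cells. Counts of other receptor constant genes were frequent: 50 (76.9%) and 54 (80.6%) members had a count of at least 1 such gene, against 229 (94.2%) and 56 (86.2%) Eomes-zero cells. *Trbc1*, a β chain constant gene, was found in 32 and 31 members. *Trdc*, the δ chain constant gene, was found in 26 of 65 and 22 of 67 members, against 18 of 243 and 13 of 65 Eomes-zero cells and 0 and 4 B cells. With every receptor constant gene excluded as well, 15 and 13 members were left. NK cells are known to transcribe unrearranged receptor genes, and whether any member is a T cell with undetected *Cd3* was not tested beyond the absence of contigs.

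Other cell types left few counts in the members. The 21 endothelial genes summed to 177 and 112 CPM, against 211 and 121 CPM in Eomes-zero cells, with the excluded *Kdr* and *Clec4g* at 0 by rule. B cell genes summed to 53.0 and 72.0 CPM, macrophage genes to 39.8 and 18.9 CPM, and hepatocyte genes to 44.2 and 11.4 CPM. Members and Eomes-zero cells alike had no count of *Cd79a* or *C1qa* by rule. Low sums of endothelial, B cell and macrophage genes were therefore partly set by the rule. Genes of dendritic cells and major histocompatibility complex (MHC) class II formed an exception. A single tdTomato+ member with 51488 UMIs held 2085 of the 2133 counts (97.8%) of 4 MHC class II genes among tdTomato+ members, whereas the next member had 8 and no tdTomato− member had more than 4. This droplet carried 7.59% of all tdTomato+ member UMIs, and list counts and levels that it carries are given with and without it where they are described. Among Eomes-zero cells, 6 tdTomato+ and 1 tdTomato− cells had at least 100 such counts.

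Within each library, members stood above Eomes-zero cells in genes of circulating NK cells and below them in genes of ILC1. Of the 4067 genes with at least 50 CPM in 1 of the groups in the tdTomato+ library, 132 were at least 2-fold higher in members (3.25%) and 227 at least 2-fold lower (5.58%). In the tdTomato− library, 156 of 4304 genes were higher (3.62%) and 427 lower (9.92%). These ratios are a description, because the cells were divided by a count from the same libraries. In both libraries 59 genes were higher, which is 44.7% of the tdTomato+ and 37.8% of the tdTomato− list, and 143 were lower, which is 63.0% and 33.5%. Another 5 genes passed the limit in opposite directions. Eomes-zero cells of the tdTomato− library were shallower (median 4791 UMIs) than those of the tdTomato+ library (8897 UMIs).

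Among 16 measured genes of cytotoxic granules and killing, 7 were at least 2-fold higher in members in the tdTomato+ library and 7 in the tdTomato− library, and 1 was lower in each, with median log2 ratios of 0.53 and 0.73 against −0.01 and −0.10 over all genes. *Prf1* (chr10:61297833-61304680, plus strand), which encodes the pore-forming perforin, was at 978 and 1534 CPM in members, against 316 and 393 CPM in Eomes-zero cells, a log2 ratio of 1.63 (1.48 to 1.78) and 1.96 (1.70 to 2.23). *Gzma* (chr13:113093825-113100981, minus strand), a serine protease of the granules, was at 6938 and 9375 CPM, against 1097 and 1999 CPM, a log2 ratio of 2.66 (2.59 to 2.73) and 2.23 (2.12 to 2.35). In each library both genes stood above the Eomes-zero level, and the intervals of the levels do not overlap between the groups.

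The granzymes did not move as one. *Gzmb*, the caspase-activating granzyme, was at 1590 and 1218 CPM in members, against 582 and 1064 CPM in Eomes-zero cells, so that it was 2.73-fold higher in the tdTomato+ library and within 2-fold in the tdTomato− library (log2 ratio 0.19, 0.01 to 0.38). With receptor constant genes excluded, the tdTomato+ ratio of *Gzmb* turned to −0.99 with 15 members. *Gzmk* had 27 and 20 counts in members and 7 and 1 in Eomes-zero cells. *Gzmc* went the other way, with 2 and 1 counts in members against 305 and 19 in Eomes-zero cells (log2 ratios −5.11 and −4.27), the 19 tdTomato− counts all in 1 cell, and it is a close relative of *Gzmb*. *Serpinb9*, the inhibitor that shields a killer cell from its own granzyme B, was at 421 and 477 CPM, against 146 and 216 CPM. *Cma1*, a chymase gene, was at 233 and 303 CPM, against 30.4 and 81.4 CPM.

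Single members varied widely in these genes. Per 10000 UMIs of a cell, *Gzma* had a median of 77.7 (0 to 223) in tdTomato+ and 100.4 (0 to 253) in tdTomato− members, and *Prf1* a median of 9.31 (0 to 41.1) and 12.7 (0 to 69.1). The ranges of members and Eomes-zero cells overlapped for both genes, since single Eomes-zero cells reached 166 and 191 for *Gzma* and 89.0 and 40.1 for *Prf1*, although their median *Gzma* was 0 in each library. After thinning, *Prf1* was found in 46 of 64 and 61 of 67 members, against 96 of 240 and 27 of 54 Eomes-zero cells.

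Of 16 genes of circulating NK cells, 15 in the tdTomato+ library and 14 in the tdTomato− library were at least 2-fold higher in members and none was lower, with median log2 ratios of 2.52 and 2.00. *Itga2* (chr13:114833081-114932100, minus strand), encoding CD49b, was at 194 and 229 CPM in members, against 29.6 and 75.8 CPM in Eomes-zero cells. *S1pr5*, the sphingosine receptor through which NK cells leave tissue, was at 168 and 248 CPM, against 24.2 and 56.1 CPM. *Klf2*, the exception in both libraries, was 1.64-fold and 1.54-fold higher, and *Ly6c2* was 2.08-fold and 1.52-fold higher.

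**Figure D1:**
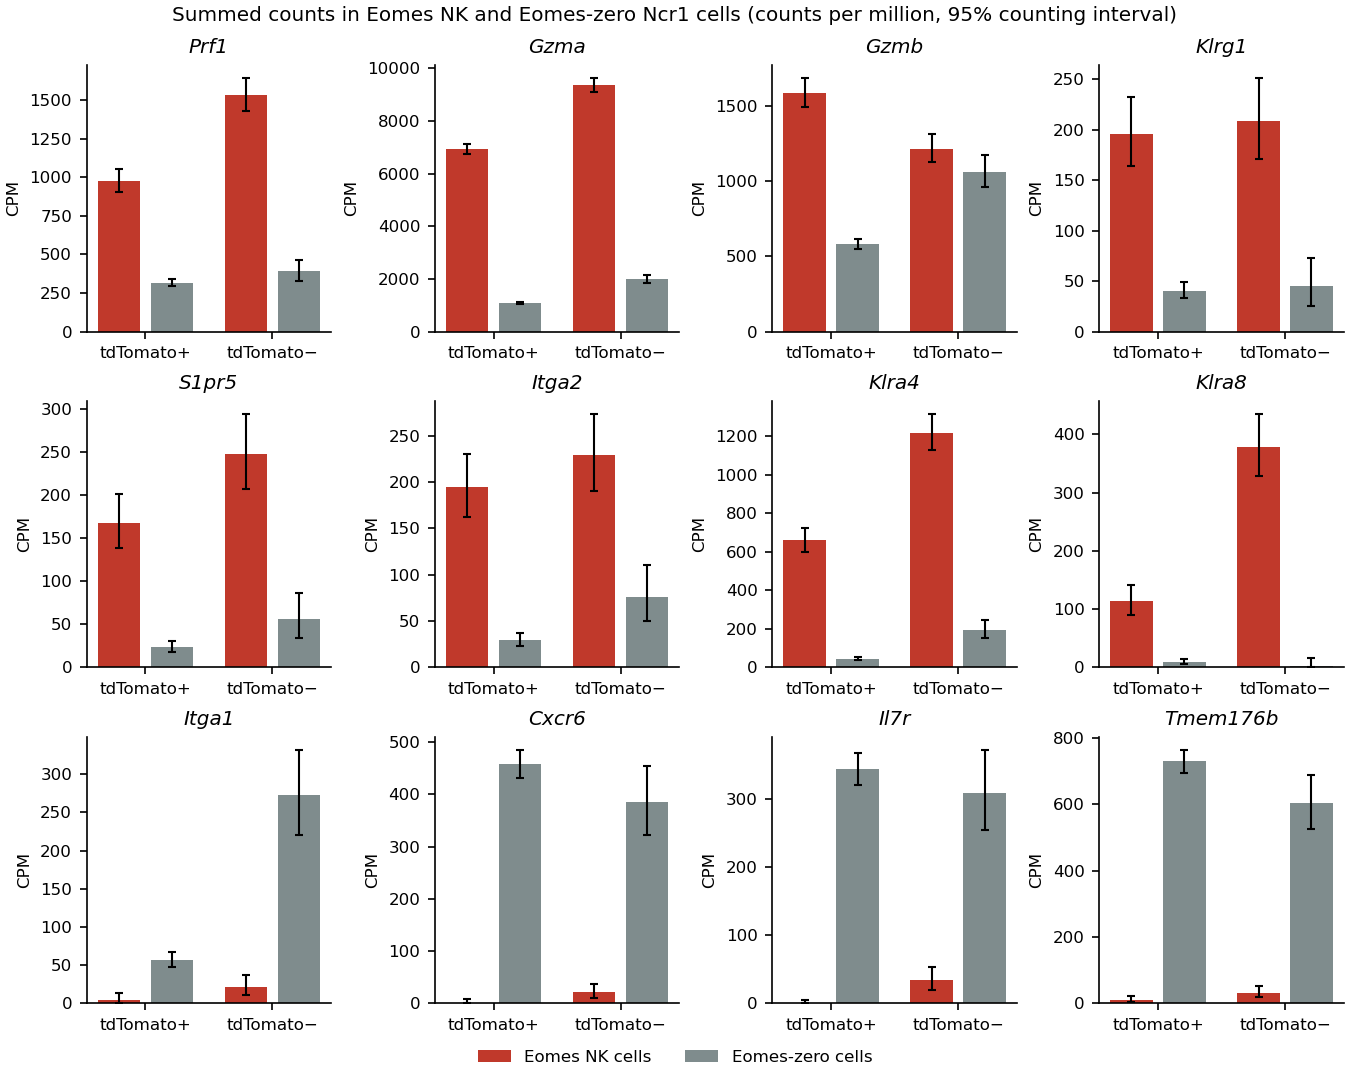
Levels of 12 genes in Eomes NK cells (red) and Eomes-zero *Ncr1* cells (grey) of the tdTomato+ and tdTomato− libraries. The vertical axes give CPM of the summed counts from 0 on scales of their own, and the error bars are exact 95% Poisson intervals of the counts in 1 library per sort. *Prf1*, *Gzma*, *Klrg1*, *S1pr5*, *Itga2*, *Klra4* and *Klra8* stand higher in the red bars of both libraries, *Itga1*, *Cxcr6*, *Il7r* and *Tmem176b* stand higher in the grey bars, and *Gzmb* is at 1218 against 1064 CPM in the tdTomato− library.

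Genes of NK cell maturation were mostly higher in members, whereas genes of immature NK cells were divided. Of 11 genes of mature NK cells, 10 and 8 were at least 2-fold higher and none lower (median log2 ratios 2.27 and 1.88), and of the immature genes 1 of 11 and 1 of 10 was higher and 6 and 5 were lower (4 of 11 lower in the tdTomato+ library without MHC class II-rich cells). Of the mature genes 7 of 11 also belong to the circulating NK cell genes above, as do 3 of 13 Ly49 genes. *Ltb*, *Kit* and *Cxcr3*, lower in both libraries, belong to the immature list and to the ILC1 genes below. The lower immature genes thus partly repeat that contrast. *Klrg1*, a receptor of terminally mature NK cells, was at 196 and 208 CPM, against 40.5 and 44.9 CPM. *Cd7*, a surface protein in the immature list, was at 408 and 606 CPM, against 1890 and 1558 CPM. By the 2 surface genes used to stage mouse NK cells, 29 (44.6%, 32.3 to 57.5) and 30 (44.8%, 32.6 to 57.4) members had an *Itgam* count without a *Cd27* count, the pattern of the most mature stage. Another 13 and 15 had both, 14 and 11 had *Cd27* only, and 9 and 11 had neither. Of the Eomes-zero cells, 18 of 243 (7.41%) and 9 of 65 (13.8%) had *Itgam* only. Thinned, *Itgam* only was found in 20 of 64 (31.3%) and 26 of 67 (38.8%) members and in 14 of 240 (5.83%) and 4 of 54 (7.41%) Eomes-zero cells. Neither gene was found in 34 of 64 (53.1%) and 35 of 67 (52.2%) thinned members. A missing count thus depends on depth, and these shares are not stage frequencies. *Itgam* was also detected in 7.08% and 10.5% of B cells before thinning and in 1.68% and 5.04% after it.

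The Ly49 receptors, which in mice bind MHC class I and related ligands, were mostly higher in members. Of the genes measured, 6 of 7 and 5 of 9 were at least 2-fold higher in members, 0 and 2 were lower, and the median log2 ratios were 3.03 and 1.49. *Klra4* (Ly49D, an activating receptor, chr6:130043731-130067271, minus strand) was at 659 and 1218 CPM in members, against 46.3 and 194 CPM in Eomes-zero cells, 14.2-fold and 6.25-fold higher. *Klra8* (Ly49H, an activating receptor for a cytomegalovirus protein, chr6:130115226-130129898, minus strand) had 77 and 200 counts in members, against 22 and 1 counts in Eomes-zero cells, or 113 and 379 CPM against 9.17 and 2.81 CPM. Its log2 ratio was 3.61 (2.93 to 4.38) in the tdTomato+ library and 6.49 (4.58 to 12.4) in the tdTomato− library, which rests on 1 count in Eomes-zero cells. *Klra9* (Ly49I, inhibitory) was at 76.6 and 136 CPM, against 11.7 and 11.2 CPM. The inhibitory *Klra7* (Ly49G) was at 391.9 and 515 CPM, against 27.1 and 182 CPM.

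*Klra1* and *Klra3*, which encode the inhibitory Ly49A and Ly49C, were at least 2-fold higher in the tdTomato+ library (8.19-fold and 3.24-fold) but not in the tdTomato− library (1.80-fold and 1.75-fold). *Klra5* (Ly49E) was at 13.3 and 1.89 CPM in members (9 counts and 1 count), against 23.4 and 278 CPM in Eomes-zero cells, within 2-fold in the tdTomato+ library and lower in the tdTomato− library. As these genes are close copies of each other, reads may have been shared among them, and the level of a single member of the family is uncertain.

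The promoters of the family were compared as well, which does not bear on the sharing of reads. The 250 bases before the transcription start (RefSeq, GRCm38.p6) were found for 11 of 13 Ly49 genes. Identity was taken over aligned bases, with gap columns left out, and ranged from 54.3% to 97.0% over the 55 pairs. It was highest for *Klra9* and *Klra3*, with 38 gap columns, against 2 for *Klra4* and *Klra8*. The promoters of *Klra4* and *Klra8*, the activating pair with high ratios in both libraries, shared 212 of 249 aligned bases (85.1%). They are shown because these genes, which neighbour each other on chromosome 6, stood higher together in members. Capitals mark bases that are not matched by the same base in the other promoter, and lower case the shared bases. The windows are chr6:130067272-130067521 for *Klra4* and chr6:130129899-130130148 for *Klra8*, both read on the minus strand 5′ to 3′.
Klra4: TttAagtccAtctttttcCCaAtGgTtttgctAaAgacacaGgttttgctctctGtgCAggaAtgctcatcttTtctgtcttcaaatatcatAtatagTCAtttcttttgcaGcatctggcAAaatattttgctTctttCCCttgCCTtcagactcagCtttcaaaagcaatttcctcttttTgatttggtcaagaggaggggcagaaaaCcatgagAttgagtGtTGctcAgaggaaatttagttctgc
Klra8: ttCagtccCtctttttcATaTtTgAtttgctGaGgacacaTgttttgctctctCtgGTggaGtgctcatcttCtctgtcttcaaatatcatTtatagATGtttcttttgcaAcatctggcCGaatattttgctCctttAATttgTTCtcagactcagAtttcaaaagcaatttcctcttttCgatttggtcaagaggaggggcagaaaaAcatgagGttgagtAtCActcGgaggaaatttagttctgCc

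A member carried more kinds of Ly49 RNA than an Eomes-zero cell. Of the 11 Ly49 genes in the matrix, members had a count of a median of 2 and 3, and 5 (7.69%) and 1 (1.49%) had none. Eomes-zero cells had a median of 0 and 1, and 180 (74.1%) and 24 (36.9%) had none. In B cells 236 of 240 and 334 of 343 had none. At least 4 Ly49 genes were found in 14 (21.5%) and 26 (38.8%) members, against 10 (4.12%) and 3 (4.62%) Eomes-zero cells. After thinning these were 4 of 64 and 11 of 67 members, with a median of 1 and 2 genes, against 2 of 240 and 1 of 54 Eomes-zero cells. Thinned, *Klra4* was found in 29 of 64 (45.3%) and 44 of 67 (65.7%) members, against 12 of 240 and 10 of 54 (18.5%) Eomes-zero cells. In B cells it was found in 0 of 238 and 0 of 337, where a floor of 3 cells would be 1.26% and 0.89%.

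**Figure D2:**
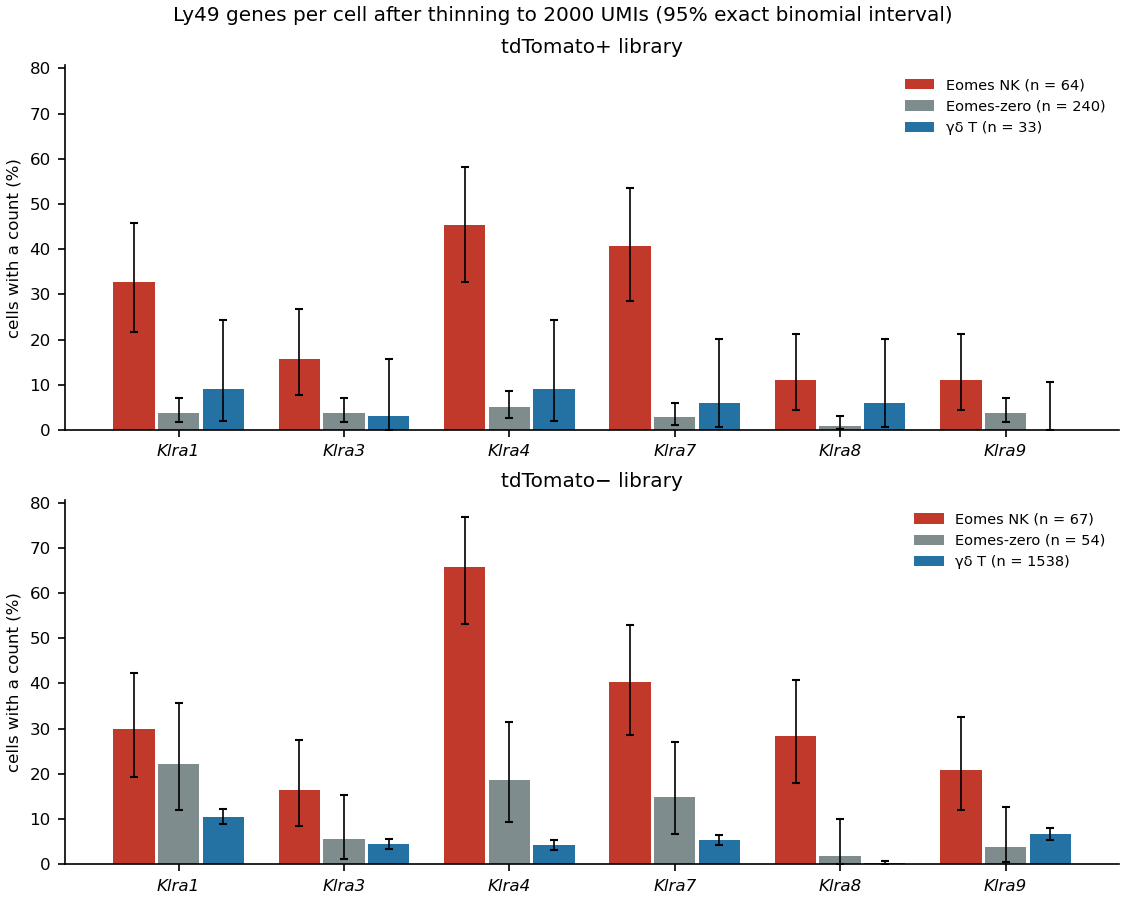
Share of cells with a count of 6 Ly49 genes (vertical axis, percent) after each cell was thinned to 2000 UMIs, for Eomes NK cells (red), Eomes-zero *Ncr1* cells (grey) and γδ T cells with *Ncr1* (blue) of the tdTomato+ library (top) and the tdTomato− library (bottom). Error bars are exact 95% binomial intervals. *Klra4* reaches 45.3% and 65.7% in Eomes NK cells, against 12 of 240 and 10 of 54 Eomes-zero cells, and the intervals of these groups overlap for *Klra9* in both libraries and for *Klra1* and *Klra3* in the tdTomato− library.

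The other surface receptors gave a mixed picture. Of the NKG2, NKR-P1 and related receptors, 5 of 22 and 2 of 21 were at least 2-fold higher in members and 7 and 6 were lower (median log2 ratios −0.57 and −0.61). In the tdTomato+ library these counts came to 4 and 6 of 21 without MHC class II-rich cells. *Klrk1* (NKG2D, activating) was at 616 and 860 CPM, against 914 and 1022 CPM, and *Klrc1* (NKG2A, inhibitory) at 413 and 343 CPM, against 658 and 609 CPM, both within 2-fold. *Cd226* (DNAM-1, an activating adhesion receptor) was at 115 and 131 CPM, against 704 and 924 CPM. *Cd160*, a receptor for HVEM, was at 91.3 and 102 CPM, against 561 and 441 CPM. Most of 17 and 18 adaptors and proximal kinases were within 2-fold. *Sh2d1a*, which encodes the adaptor SAP, was higher at 147 and 199 CPM, against 16.3 and 47.7 CPM, as was the kinase *Syk* at 127 and 163 CPM, against 40.5 and 61.8 CPM.

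Transcription factors fell on both sides. Of 32 measured, 6 and 5 were at least 2-fold higher in members and 11 and 10 lower. Leaving out MHC class II-rich cells gave 5 and 13 in the tdTomato+ library. *Zeb2*, a repressor needed for terminal NK cell maturation, was at 386 and 551 CPM in members, against 60.9 and 149 CPM in Eomes-zero cells (6.33-fold and 3.68-fold), and had a count in 95.4% and 88.1% of members. *Irf8* was at 762 and 793 CPM, against 211 and 236 CPM. *Tbx21*, the T-bet gene that both lineages use, was at 274 and 358 CPM, against 310 and 407 CPM, and its log2 ratios of −0.18 (−0.42 to 0.05) and −0.19 (−0.51 to 0.14) both have intervals that include 0. *Rora* (67.8 and 75.7 CPM, against 385 and 331 CPM), *Tox* (84.0 and 163 CPM, against 358 and 345 CPM) and *Ikzf2*, which encodes Helios (41.2 and 37.9 CPM, against 233 and 202 CPM), were lower. *Zfp683*, encoding the residency factor Hobit, had 0 and 4 counts in members, against 183 and 20 in Eomes-zero cells.

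*Id3*, an inhibitor of E proteins, had 58 counts in tdTomato+ members against 90 in Eomes-zero cells (85.5 CPM against 37.5 CPM), and 3 counts in tdTomato− members against 21 (5.68 CPM against 58.9 CPM). The higher tdTomato+ level rested on the MHC class II-rich droplet, which held 54 of the 58 counts, and without it the level was 6.38 CPM. In the tdTomato− library 1 Eomes-zero cell held 11 of the 21 counts.

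All 20 ILC1 genes were at least 2-fold lower in members of the tdTomato+ library and 19 of 20 in those of the tdTomato− library, with median log2 ratios of −3.04 and −3.33. *Cxcr6* (chr9:123806475-123811760, plus strand), the chemokine receptor that holds lymphocytes in the liver sinusoids, was at 1.47 and 20.8 CPM in members, against 457 and 385 CPM in Eomes-zero cells. It had a count in 1 of 65 and 5 of 67 members, against 194 of 243 and 37 of 65 Eomes-zero cells and 1.25% and 0.875% of B cells. *Il7r* (chr15:9505788-9530176, minus strand), the interleukin-7 receptor α chain, had 0 and 18 counts in members, against 824 and 110 counts. In the tdTomato+ library this is at least 77.7-fold lower, with 3 counts over the members as the floor, and in the tdTomato− library the log2 ratio was −3.15 (−3.99 to −2.45), with 10 of the 18 counts in 1 member.

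*Itga1*, encoding CD49a, was at 4.42 and 20.8 CPM, against 56.7 and 272 CPM, and *Tmem176b*, a membrane protein gene, at 10.3 and 32.2 CPM, against 730 and 604 CPM. *Xcl1*, a chemokine for cross-presenting dendritic cells, was the gene within 2-fold in the tdTomato− library (964 CPM against 1833 CPM) and was 4.24-fold lower in the tdTomato+ library (913 CPM against 3879 CPM). At least 3 counts of 7 ILC1 markers were found in 3 (4.62%) and 4 (5.97%) members, against 217 (89.3%) and 47 (72.3%) Eomes-zero cells. The Eomes-zero cells were not only ILC1-like, since 9 and 3 of them had a count of *Il22* or *Il23r*, genes of type 3 innate lymphoid cells, against 0 and 0 members. *Il22* itself had 246 and 172 counts in them, which lay in 1 Eomes-zero cell of each library. NK cells with undetected *Eomes* may also be among the Eomes-zero cells. The members were also thinned to 2000 UMIs by themselves, in a random draw apart from that of all *Ncr1* cells above. In this draw only 30 of 64 and 37 of 67 members kept an *Eomes* count. *Klra4* had a count in 30 of 243 and 13 of 65 Eomes-zero cells, and *S1pr5* in 24 of 243 and 11 of 65. How many Eomes-zero cells were such NK cells was not tested.

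**Figure D3:**
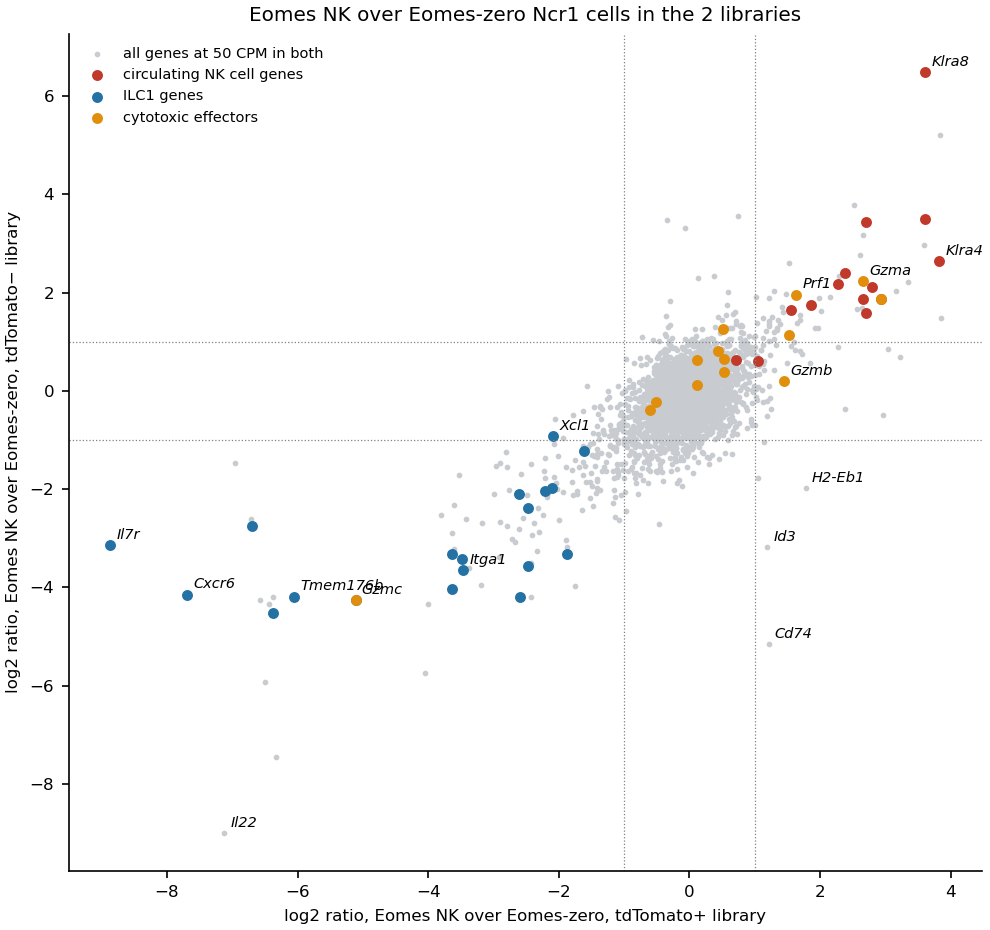
Log2 ratio of Eomes NK over Eomes-zero cells in the tdTomato+ library (horizontal axis) and in the tdTomato− library (vertical axis) for 3734 genes with at least 50 CPM in 1 of the groups in both libraries. Each point is a gene, coloured for circulating NK cell genes (red), ILC1 genes (blue) and cytotoxic effectors (orange), and dotted lines mark 2-fold. Most red points lie at the upper right and the blue points at the lower left, *Xcl1* lies above the lower line at −0.93, and *Cd74*, *Id3* and *H2-Eb1* lie at the lower right.

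Chemokine and cytokine genes were divided. Of 13 and 12 measured, 1 and 3 were at least 2-fold higher in members and 6 and 5 lower. *Ccl5*, a chemokine stored by memory and NK cells, was at 11698 and 13840 CPM, against 4766 and 6622 CPM. *Ccl4* was 4.01-fold higher in tdTomato− members (4200 CPM against 1047 CPM) and within 2-fold in tdTomato+ members (2929 CPM against 1949 CPM). *Ifng*, the type 1 effector cytokine, was at 651 and 757 CPM, against 825 and 477 CPM, so that its log2 ratios had opposite signs (−0.34, −0.49 to −0.19, and 0.66, 0.40 to 0.93). *Tnf* was at 38.3 and 32.2 CPM, against 194 and 241 CPM, and *Ltb*, encoding lymphotoxin β, at 177 and 133 CPM, against 766 and 522 CPM. Of 18 cytokine receptors in each library, 0 and 1 were higher and 5 and 8 lower. Of the trafficking and adhesion genes, 11 of 26 and 7 of 25 were higher and 5 and 6 lower (10 of 25 and 8 of 25 higher without MHC class II-rich cells).

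Among the 10 genes with the highest ratio in both libraries, taken as the smaller of the 2 ratios, were *Tnni1*, *Eya1*, *Klra8*, *Cmah*, *Prr5l*, *Klra9*, *Nrarp*, *Klra4* and *As3mt*. *Tnni1*, the slow skeletal muscle form of troponin I, had 27 and 36 counts in members, against 4 and 0 in Eomes-zero cells. *Eya1*, a transcriptional coactivator with phosphatase activity, had 38 and 27 counts, against 9 and 0. *As3mt*, encoding arsenite methyltransferase, had 54 and 65 counts, against 31 and 6. With receptor constant genes excluded the tdTomato+ ratios of *Eya1* and *As3mt* were −0.01 and −0.32. At the other end, with *Il22* in 1 cell of each library and nearly all *Cxcl2* in 1 Eomes-zero cell of each (37 of 39 and 44 of 45 counts), were *Il22*, *Upp1*, *Ttn*, *Il23r*, *Tmem176a*, *Cxcl2*, *P2rx7*, *Mmp9*, *Gzmc* and *Apol7b*. *Upp1*, uridine phosphorylase, had 0 and 0 counts in members, against 141 and 59, at least 13.3-fold and 29.2-fold lower.

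Among the remaining lists, T cell genes were lower in members for 8 of 10 and 8 of 12 and higher for 1 (*Trdc*) and 0. Of the interferon-response genes, 0 and 0 were higher and 5 of 20 and 4 of 16 lower. Immediate-early and dissociation-stress genes were within 2-fold for 17 of 18 and 16 of 18, and metabolism and growth genes for 11 of 11 and 9 of 11. Cell cycle genes were within 2-fold for 18 of 18 in the tdTomato+ library, whereas in the tdTomato− library 7 of 15 were higher and 2 were lower. There 1 member held 64 of 71 counts of *Top2a* and 48 of 54 counts of *Mki67*. The dendritic and MHC class II list was higher for 6 of 6 in the tdTomato+ library and lower for 4 of 4 in the tdTomato− library. Without the droplets rich in these counts, members and Eomes-zero cells alike, it was lower for 4 of 4 in the tdTomato+ library. Endothelial genes were higher for 2 of 7 and 1 of 4 and lower for 1 and 1, and without those droplets higher for 1 of 6 and 1 of 3. B cell genes were lower for 2 of 2 and 1 of 2, and hepatocyte genes for 2 of 2 and 1 of 1. Macrophage genes were lower for 1 of 2 in the tdTomato+ library with none measured in the other, neutrophil and monocyte genes for 1 of 2 and 0 of 1, and no red cell gene was measured. Without the MHC class II-rich droplets, the tdTomato+ library had 0 macrophage genes measured and 0 of 1 neutrophil and monocyte genes lower.

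Between the libraries, members were similar in most genes. Of 3972 genes with at least 50 CPM in 1 of the groups, 115 were at least 2-fold higher in tdTomato+ members (2.9%) and 64 at least 2-fold lower (1.61%). The 10 with the highest ratio were *H2-Ab1*, *Cd74*, *Plbd1*, *H2-Aa*, *Xcr1*, *Mpeg1*, *Naaa*, *Cst3*, *H2-Eb1* and *H2-DMb1*, most of them genes of antigen presentation or of conventional dendritic cells. *Cd74*, the MHC class II invariant chain, had 1046 counts in tdTomato+ members against 6 in tdTomato− members. Without the MHC class II-rich droplet *Cd74* had 19 counts and was still at least 2-fold higher (log2 ratio 1.34). *H2-Eb1* then had a log2 ratio of 0.03 in place of 4.02, and 79 of 3938 genes were higher and 55 lower. With cells that carried *Kdr* or *Clec4g* counts included, the 100 tdTomato+ members were higher than the tdTomato− members in 359 of 4258 genes and lower in 69. The 10 genes at the other end were *Tpm3-rs7*, *Ankra2*, *Tnk2*, the unnamed gene ENSMUSG00000121360, *Cog4*, *Klra8*, *Tor4a*, *Lars2*, *Clcf1* and *Fam117a*.

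Effector genes were close between the sorts. *Prf1* was 1.57-fold lower in tdTomato+ members (log2 ratio −0.65, −0.80 to −0.50), *Gzma* 1.35-fold lower (−0.43, −0.49 to −0.38) and *Gzmb* 1.31-fold higher (0.38, 0.24 to 0.53), with intervals that exclude 0 but cover only counting error. With receptor constant genes excluded, *Gzmb* turned to a log2 ratio of −1.87 on 15 and 13 members, and with *Kdr* and *Clec4g* left out of the rule it was −0.01. Of the cytotoxic effectors 0 of 15 were 2-fold higher and 1 lower (*Fasl*, the Fas ligand gene, at 164 CPM against 329 CPM), and 0 of 15 were lower without the MHC class II-rich droplet, where *Fasl* was at 167 CPM. Of the circulating NK cell genes 0 of 16 were higher and 2 lower (*Ly6c2* and *Klra8*), with a median log2 ratio of −0.54.

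Of 8 measured Ly49 genes 3 were at least 2-fold lower (*Klra3*, *Klra8* and *Klra10*) and 1 higher (*Klra5*, 9 counts against 1), with a median log2 ratio of −0.86 against −0.03 over all genes. Eomes-zero cells differed the same way between the libraries, with 6 of 7 Ly49 genes at least 2-fold lower in tdTomato+ cells and a median log2 ratio of −2.73. *Klra8* was at 113 and 379 CPM (log2 ratio −1.73, −2.14 to −1.35), and at 113 CPM without the MHC class II-rich droplet. The thinned share of members with *Klra8* was 10.9% for tdTomato+ and 28.4% for tdTomato− cells. *Klra4* was 1.85-fold lower (log2 ratio −0.89, −1.06 to −0.71).

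Cell cycle genes stood higher in tdTomato+ members, for 10 of 18 genes with a median log2 ratio of 1.13, and none was 2-fold lower. In Eomes-zero cells 13 of 18 were higher in the tdTomato+ library, with a median log2 ratio of 2.04. *Mcm5*, a subunit of the replicative helicase, had 62 counts against 10, and *Tyms*, thymidylate synthase, 44 against 5. A count of at least 9 of the 18 genes was found in 8 of 65 tdTomato+ members (12.3%, 5.47 to 22.8) and 1 of 67 tdTomato− members (1.49%, 0.038 to 8.04), and these cells, which the list itself defines, held 70.7% and 43.1% of all its counts. The 8 cells had a median of 22146 UMIs and included the MHC class II-rich droplet, and after thinning the shares were 2 of 64 (3.13%) and 1 of 67 (1.49%). In the same libraries, 20 of 243 and 1 of 65 Eomes-zero cells and 9 of 240 and 4 of 343 B cells passed this limit. Without the MHC class II-rich droplet 9 of 18 cell cycle genes were higher, and without the cycling cells as well 4 of 11 were higher and 1 lower.

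Interferon-response genes were 2-fold higher in tdTomato+ members for 3 of 17 (*Mx1*, *Bst2* and *Usp18*) and lower for none, with a median log2 ratio of 0.57. Over all genes, 5.41% were higher and 4% lower at a 20 CPM minimum, and 18.6% and 13.9% with no level filter. Eomes-zero cells showed a like difference between the libraries, with 6 of 20 higher, 0 lower and a median of 0.57. *Mx1*, an antiviral GTPase, had 26 counts against 4, and 19 against 4 without the MHC class II-rich droplet. Without that droplet and the cycling cells, 4 of 16 were higher (*Isg15*, *Mx1*, *Usp18* and *Gbp2*) and the median was 0.83. Of the ILC1 genes 1 of 16 was higher and 5 lower (*Itga1*, *Cxcr6*, *Il7r*, *Tmem176a* and *Tmem176b*), all at low levels in members. Of the other lists, 1 of 29 transcription factors (*Id3*), 1 of 16 cytokine receptors (*Il15ra*), 1 of 20 NKG2, NKR-P1 and related receptors (*Havcr2*), 1 of 26 trafficking genes (*Itgae*), 1 of 11 cytokines (*Lta*) and 1 of 11 metabolism genes (*Slc7a5*) were higher. The MHC class II-rich droplet held 54 of 58 counts of *Id3*, 13 of 13 of *Havcr2* and 13 of 15 of *Itgae*, and another member 22 of 35 counts of *Isg15*. Markers of other cell types were also higher in tdTomato+ members, with 2 of 4 endothelial genes (*Fcgr2b* and *Dnase1l3*) and, from 1 or 2 measured genes each, *Cd68*, *Trf* and *Lyz2*. Of these *Fcgr2b* (23 counts against 6) and *Trf* (26 against 5) stayed at least 2-fold higher without the droplet among the genes measured. Their part in the other differences was not tested. Adaptors and stress genes had 0 of 17 and 0 of 18 in either direction.

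**Figure D4:**
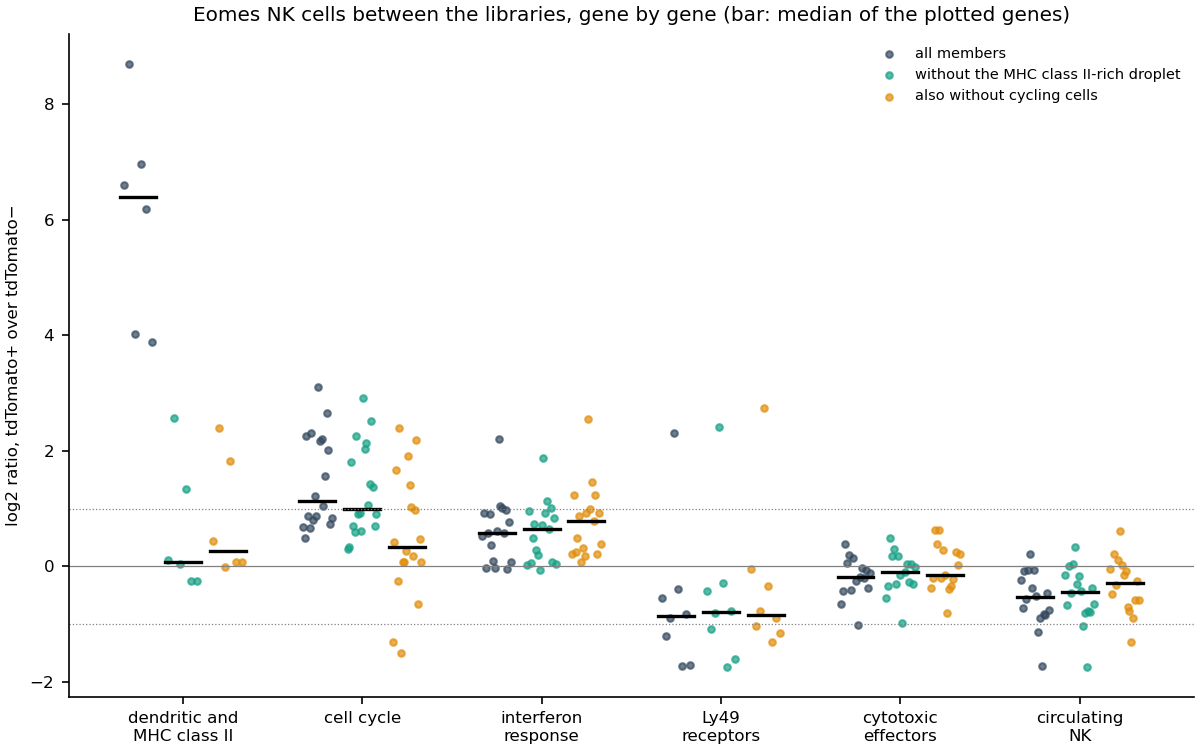
Log2 ratio of tdTomato+ over tdTomato− Eomes NK cells (vertical axis) for the genes of 6 lists (horizontal axis), with all members (dark blue), without the MHC class II-rich droplet (green) and also without the cycling cells (orange). Each point is a gene, bars are medians of the plotted genes, and dotted lines mark 2-fold. The MHC class II points come down once 1 droplet is left out, but *Cd74* and *H2-Ab1* (the latter on 3 counts) stay above the upper dotted line. The cell cycle points come down in part, and the Ly49 points remain mostly under 0 in all 3 versions.

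Finally, members were set beside γδ T cells that also carried NK receptors, the cells the study was about. These were 33 and 1543 cells with at least 2 *Cd3* counts, at least 2 counts of *Ncr1* and *Klrb1c*, a *Trdc* count and no *Trac* count, of which 7 and 465 had a receptor contig. In the tdTomato+ library 230 of 4098 genes were at least 2-fold higher in members (5.61%) and 234 lower (5.71%), and in the tdTomato− library 258 of 3998 were higher (6.45%) and 244 lower (6.1%). The circulating NK cell genes were higher for 15 of 16 and 16 of 16, the ILC1 genes lower for 17 of 19 and 15 of 19, and T cell genes lower for 11 of 13 and 11 of 14. *Cxcr6*, for example, was at 1.47 and 20.8 CPM in members, against 245 and 543 CPM in the γδ T cells.

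Of the cytotoxic effectors 6 of 16 in each library were higher in members and 1 and 2 lower (*Gzmc*, and *Gzmb* in the tdTomato− library). *Prf1* was at 978 and 1534 CPM in members, against 253 and 215 CPM in γδ T cells, whereas *Gzmb* was at 1590 and 1218 CPM, against 2843 and 5811 CPM. *Gzma* was 2.26-fold and 1.87-fold higher in members. Of the Ly49 genes 5 of 8 and 7 of 9 were higher in members and 2 and 2 lower (*Klra5* and *Klra6*), with median log2 ratios of 1.55 and 2.01. *Klra4* was at 659 and 1218 CPM, against 48.6 and 24.6 CPM, and *Klra5* at 13.3 and 1.89 CPM, against 498 and 1175 CPM. *Klra8* had 200 counts in tdTomato− members, against 35 counts in 1543 γδ T cells of that library. *Serpinb9b*, *As3mt*, *Cma1*, *Aldh2*, *Eya1*, *Dhrs3*, *Klra4*, *Phactr3*, *Sgk1* and *Gstm1* had the highest ratios in both libraries, and *Klra5*, *Tmem273*, *Cd8a*, *P2rx7*, *Cxcr6*, *Epcam*, *Itga1*, *Klrh1*, *Klk8* and *Atp8a2* the lowest. *Serpinb9b*, a granzyme inhibitor, had 128 and 93 counts in members, against 0 and 5 in γδ T cells, and *Cma1* 158 and 160 counts, against 3 and 11. The interleukin-18 receptor genes *Il18r1* and *Il18rap* were higher in members of both libraries, with *Il18r1* at 261 and 299 CPM, against 79.2 and 30.6 CPM.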

How the data were processed

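Single-cell RNA sequencing was performed by the authors with a 5′ droplet kit on sorted liver cells. The submitters' processing notes name Cell Ranger 10.0.0 and mm10. The deposited matrices held whole-number UMI counts per gene and barcode, which the authors had not normalized, for 33696 genes (31961 with an ID in the GENCODE M21 name table) and 17957 tdTomato+ and 18444 tdTomato− barcodes with 203366009 and 156771260 UMIs. Deposited receptor contigs were used only for whether a barcode had one.

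The members and the 24 gene lists were chosen with earlier results of these data known. Counts were summed over cells and scaled to CPM, 0.5 counts were added for log2 ratios, and 2-fold served as the limit. Genes with at least 50 CPM in 1 of the groups, and list members with at least 10 CPM, were used. The list counts therefore have no all-gene share at their own minimum. At 20 CPM, 4.22% of genes were higher and 6.42% lower over Eomes-zero cells in the tdTomato+ library. In the tdTomato− library these shares were 5.56% and 12.4%, all above those at 50 CPM. Cells were thinned to 2000 UMIs without replacement. The genes named were the list members and, per comparison, the 10 with the largest and the 10 with the smallest ratio (within libraries, by the smaller ratio of both), without genes of the rule, receptor segments, Gm and Rik models, and mitochondrial, ribosomal and haemoglobin genes. One gene that this rule names is not reported here. Genes named because 1 library went against the other, the subset tables without mixed or cycling cells, and the counts that 1 cell holds, were chosen after their values were seen. B cells had at least 2 *Cd79a* counts and no *Cd3*, *Ncr1* or *Klrb1c*. No doublet caller was run, so doublets remain, and the deepest 5% of cells were left out as an alternative. With 1 library per sort no count model was fitted. The tools were pandas 2.3.3 and scipy 1.17.1 with numpy 2.4.6 in Python 3.11.15, biopython 1.88 for sequences and matplotlib 3.10.9 for plots, and the calculation was tested on simulated data.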

Additional observations from a re-analysis of the deposited data

Results flagged for a closer look

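The ratio of Eomes NK over Eomes-zero cells had opposite signs in the tdTomato+ and tdTomato− libraries, at 2-fold or more each way, for 5 genes. In none was the difference between the libraries tested, since each sort had 1 library. The log2 ratios of *Cd74* were 1.21 and −5.16 and those of *H2-Eb1* 1.78 and −1.99. In tdTomato+ members 1 MHC class II-rich droplet held 1027 of 1046 counts of *Cd74* and 363 of 385 of *H2-Eb1*. Without MHC class II-rich cells both genes were at least 2-fold lower in members of each library. The log2 ratios of *Id3* were 1.19 and −3.19, and 54 of its 58 counts in tdTomato+ members lay in such a droplet. Those of *Pbx3*, a homeobox gene, were 1.05 and −1.77 on 35 and 11 counts in members, against 60 and 26 counts in Eomes-zero cells. Those of the gene model *1110038B12Rik* were 1.14 and −1.04.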

How the results depend on the processing

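The alternatives were 10 planned and 4 added after seeing the data. Of the genes named, 37 of 45 and 41 of 45 kept their sign against Eomes-zero cells in the tdTomato+ and tdTomato− libraries and 19 of 30 between the libraries, under the 13 alternatives run there. Against γδ T cells 20 of 20 did in each library under 9 alternatives, which did not include the exclusion of receptor constant genes. Several granzyme ratios over Eomes-zero cells changed sign under some alternative. These were *Gzmb* in both libraries, *Gzmm* in the tdTomato+ library (lowest −0.415) and *Gzmk* in the tdTomato− library (lowest −0.711). No paired analysis was possible because each sort had 1 library, and no replicate was there to leave out.

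The share of *Ncr1* cells with *Eomes* was 60.2% in the tdTomato− library when 4 *Ncr1* and *Klrb1c* counts were required, and 9.87% and 33.1% after thinning. Without receptor constant gene counts and contigs, members numbered 15 and 13 (0.0857% and 0.0715% of the libraries), the tdTomato+ share with *Eomes* was 51.7%, and log2 ratios in the tdTomato+ library turned for *Eya1* (−0.0092), *As3mt* (−0.324) and *Gzmb* (−0.99), as did that of *Clcf1* between the libraries (0.0089). With *Kdr* and *Clec4g* left out of the rule, tdTomato+ members numbered 100 (0.571%) and *Lars2* turned to 0.15 between the libraries.

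Counts of genes at least 2-fold apart varied widely. Over Eomes-zero cells in the tdTomato+ and tdTomato− libraries they were 359 and 583 as reported, 1538 and 1885 without receptor constant genes, 722 and 1360 after thinning, 752 and 1283 at a 20 CPM minimum, and 3681 and 4946 with no filter. They were also 232 in the tdTomato+ library without the *Kdr* and *Clec4g* exclusion and 1117 in the tdTomato− library with the mean over cells. Between the libraries they were 179 as reported, 1356 without receptor constant genes, 734 thinned, 656 at 20 CPM, 4409 with no filter, 428 without the *Kdr* and *Clec4g* exclusion and 102 without MHC class II-rich and cycling cells. Over γδ T cells they were 464 and 502 as reported, 1175 and 767 thinned, 1130 and 957 at 20 CPM, and 3841 and 7726 with no filter. Setting the median ratio to 0 left 204 genes higher and 369 lower over Eomes-zero cells in the tdTomato− library. The causes of these changes were not tested.

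Between the libraries, *Plbd1*, *Xcr1* and *Mpeg1* turned to −0.26 without the deepest 5% of cells and to −0.25 without the MHC class II-rich droplet, and *H2-Eb1* to −0.0037 without the cycling cells as well. *Il22* had 0 counts in tdTomato+ members and gave 1.82 when 4 *Ncr1* and *Klrb1c* counts were required and 1.71 without the cells with *Il22* or *Il23r*, where both groups held 0 counts.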
